A study of Mus musculus with 46 samples.

Results

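The CXC chemokines are small secreted or membrane-bound proteins that attract leukocytes, named for the single residue that separates their first cysteines. The genes followed here, 8 in number, were read by symbol in every deposited table: the ligands Cxcl1, Cxcl2, Cxcl9, Cxcl10, Cxcl13 and Cxcl16 and the receptors Cxcr2 and Cxcr4. They are 8 of the 24824 gene symbols that the 4 tables hold between them, and all 8 had a row in each table. Members were chosen by name and not by a measured value, although results of these data were known when the set was drawn up.

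The study asked how loss of Dicer, the enzyme that cuts microRNA precursors, affects microglia, the resident macrophages of the brain, at rest, under challenge and in development. It holds 46 bulk RNA-seq libraries of sorted mouse microglia. Adult Dicer-deficient mice were Cx3cr1CreER:Dicerfl/- and their controls Cx3cr1CreER:Dicer+/-, aged 10 to 12 weeks, so that both carried the inducible recombinase under the Cx3cr1 promoter and at least 1 null allele. One table compares 3 Dicer-deficient with 4 control libraries of unchallenged adult brain. A second covers total brain, with 4 LPS Dicer-deficient, 4 LPS control, 3 steady-state Dicer-deficient and 3 steady-state control libraries. The third covers the hippocampus, with 2 LPS Dicer-deficient, 2 LPS control, 3 steady-state Dicer-deficient and 2 steady-state control libraries. LPS, a bacterial cell wall lipid that activates Toll-like receptor 4, was injected into the peritoneum at 1 mg per kg, and cells were taken 6 h later. The steady-state total brain libraries also bear the word PBS in their descriptions. The last table holds Dicerfl/fl controls at E14 (4 libraries), P0 (5) and 6 to 8 weeks (5), and 2 P0 libraries of Cx3cr1Cre:Dicerfl/fl mice, in which the recombinase is active from development on. Cells were sorted as CD45int CD11b+ F4/80+ Ly6C- Ly6G-, and at E14 as CD45+ CD11b+ F4/80hi Ly6C- Ly6G-. The design text of the series does not tell the adult genotypes apart in its wording and counts 3 LPS Dicer-deficient brain libraries where 4 are labelled. Whether libraries are from separate animals is not stated, and the spread behind each p-value may therefore be technical.

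Receptor pairings give the family its logic. CXCL1 and CXCL2 bind CXCR2, the main chemoattractant receptor of neutrophils, and their genes are classical targets of NF-kB. CXCL9 and CXCL10 are induced by interferons and bind CXCR3 on T cells and natural killer cells. CXCL13 recruits B cells through CXCR5, CXCL16 is a membrane-anchored ligand of CXCR6 that metalloproteases can shed, and CXCR4 is the receptor of CXCL12.

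The promoters of the 4 ligand genes that changed most with LPS in total brain, and of the receptor Cxcr2, are shown because they differ in known inflammatory motifs. RefSeq held an entry for 7 of the 8 members, all but Cxcl16. Each line gives the 250 bases before the annotated start, 5′ to 3′ on the strand of the gene, from GRCm38.p6, which is not the mm9 build of the deposited tables. Capitals mark matches to the NF-kB consensus and, in Cxcl10, also to the interferon-stimulated response element.
Cxcl1, chr5:90890995-90891244, plus strand: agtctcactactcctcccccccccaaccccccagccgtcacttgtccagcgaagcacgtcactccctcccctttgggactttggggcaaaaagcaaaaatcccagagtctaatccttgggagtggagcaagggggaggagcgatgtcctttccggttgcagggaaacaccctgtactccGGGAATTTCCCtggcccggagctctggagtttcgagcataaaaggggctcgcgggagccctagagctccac
Cxcl2, chr5:90903649-90903898, plus strand: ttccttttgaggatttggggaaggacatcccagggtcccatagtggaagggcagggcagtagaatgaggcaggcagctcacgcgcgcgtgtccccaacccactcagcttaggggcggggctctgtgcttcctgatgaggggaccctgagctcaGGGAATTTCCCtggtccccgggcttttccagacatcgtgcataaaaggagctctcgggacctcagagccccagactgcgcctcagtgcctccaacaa
Cxcl9, chr5:92328080-92328329, minus strand: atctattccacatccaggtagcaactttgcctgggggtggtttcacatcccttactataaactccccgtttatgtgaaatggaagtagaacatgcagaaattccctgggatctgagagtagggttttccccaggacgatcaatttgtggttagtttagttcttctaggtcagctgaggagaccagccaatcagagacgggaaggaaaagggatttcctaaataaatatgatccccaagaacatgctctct
Cxcl10, chr5:92348890-92349139, minus strand: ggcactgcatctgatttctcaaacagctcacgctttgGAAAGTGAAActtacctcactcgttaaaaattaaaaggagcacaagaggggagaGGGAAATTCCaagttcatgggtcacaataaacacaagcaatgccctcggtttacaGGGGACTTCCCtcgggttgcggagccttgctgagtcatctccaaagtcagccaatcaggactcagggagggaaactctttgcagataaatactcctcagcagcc
Cxcr2, chr1:74153744-74153993, plus strand: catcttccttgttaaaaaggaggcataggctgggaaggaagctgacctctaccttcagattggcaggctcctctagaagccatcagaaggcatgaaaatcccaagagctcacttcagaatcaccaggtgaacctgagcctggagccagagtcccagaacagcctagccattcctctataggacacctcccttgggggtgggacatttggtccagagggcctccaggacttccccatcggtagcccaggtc
Cxcl1 and Cxcl2 hold the same NF-kB match, GGGAATTTCC, at 71 and 97 bases before the start, and each also matches on the other strand with a shift of 1 base. Cxcl10 holds 3 NF-kB matches, of which 2 overlap, and 1 match to the interferon-stimulated response element, searched as GAAA, any 2 bases and GAAA again, at 213 bases before the start. Cxcl10 is also the only one of the 7 with an AP-1 site (TGANTCA). Neither the NF-kB consensus nor the response element was found in the windows of Cxcl9, Cxcl13, Cxcr2 and Cxcr4, and no window held a gamma-activated site (TTCNNNGAA). The CCAAT box (CCAAT) was in the windows of Cxcl9, Cxcl10 and Cxcr2. Both strands were searched, and of 32851 promoter windows of this length 7.25% held the NF-kB consensus, 2.98% the response element, 7.02% the gamma-activated site, 6.75% the AP-1 site and 33.8% the CCAAT box. A match is a string of letters and not a shown binding site.

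Values are the normalized read counts of the authors, with 898451 to 4573063 reads per library recovered from them. Differences are log2 changes of the value plus 1 with their SE, from limma fitted to all genes of a table, and a gene was called at a Benjamini-Hochberg adjusted p under 0.05. The microglial marker P2ry12 was at 625.1 or above in every library, but transcripts of other cells were present in some. The neutrophil gene S100a8 reached 679 in LPS control brain library 33, and 1533 to 2065 in the 3 steady-state Dicer-deficient hippocampal libraries. LPS control brain library 33 had P2ry12 at 6074, against 974 to 1476 in the other LPS controls. Steady-state control brain had 9103 to 11450. Nfkbiz, an NF-kB regulator, was 93.1 in library 33, against 276.5 to 367.5 in the other LPS controls and 56.7 to 91.9 in steady-state controls. Cxcl10 and Cxcl16 in library 33 were above every steady-state control, and the library was kept in the main test. Dicer1 averaged 137 ± 17.96 in Dicer-deficient and 119 ± 24.1 in control adult libraries (SD, n = 3 and 4). Where its counted part lies relative to the deleted exon is not given in the sources used here, so it does not check the labels. In bulk libraries fewer cells of a type and less RNA per cell cannot be told apart.

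LPS raised the inflammatory ligands in total brain microglia of both genotypes, and Cxcr2 rose in the Dicer-deficient cells. In Dicer-deficient brain 6 of 8 members were called, all higher, where 24.9% of all tested genes were called in either direction. In control brain 5 of 8 were called, again all higher, with 14.1% of all genes called. The median member changed by 4.601 in Dicer-deficient and by 1.91 in control microglia on the log2 scale, while the medians of all tested genes were -0.04 and -0.05. Each contrast has its own steady-state libraries, and the test of the difference between them follows below.

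**Figure D1:**
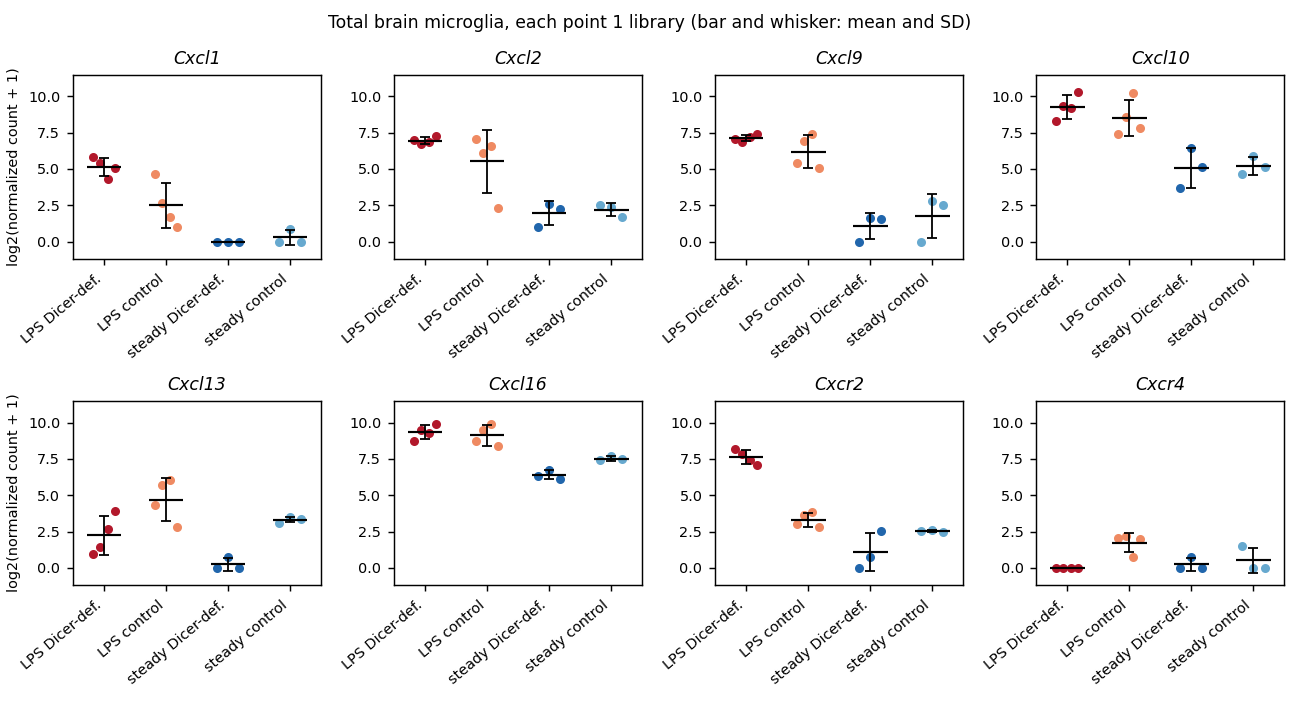
Normalized counts of the 8 genes in total brain, as log2(value + 1) on the vertical axis, with 1 point per library, from left to right LPS Dicer-deficient, LPS control, steady-state Dicer-deficient and steady-state control; bars and whiskers are mean and SD. The 4 LPS Dicer-deficient libraries stand between 132 and 295 normalized counts for Cxcr2, above every other library.

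In total brain Cxcr2 had the largest difference between the genotypes after LPS among the 8 genes. Its normalized count was 295, 230.5, 172 and 132 in LPS Dicer-deficient brain, against 7.2, 11.2, 13.2 and 5.9 in LPS control brain. Steady-state levels were 0, 0.7 and 4.8 in Dicer-deficient and 4.7, 5.0 and 4.6 in control libraries. The lowest LPS Dicer-deficient library lay far above the highest library of any other brain group. With LPS Cxcr2 rose by 6.54 ± 0.52 in Dicer-deficient cells (limma adjusted p = 1.3e-06), while in control cells the difference was 0.79 ± 0.52 (limma adjusted p = 0.339). After LPS it was higher in Dicer-deficient than in control brain by 4.33 ± 0.48 (limma adjusted p = 3.17e-05), and there 4 of 8 members were called, against 9.4% of all genes. The interaction, the LPS effect in Dicer-deficient minus that in control cells, was 5.75 ± 0.73 (limma adjusted p = 0.00389). Only 0.171% of all genes, 23 of 13423, had a called interaction, and Cxcr2 was 1 of them in the main test and in every alternative run.

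Cxcl1 and Cxcl2, the ligands of that receptor, rose with LPS in both genotypes. Cxcl1 measured 54.6, 42.4, 18.9 and 31.7 in LPS Dicer-deficient brain and 23.7, 5.2, 2.2 and 1.0 in LPS control brain. At steady state it had no read in the 3 Dicer-deficient libraries and 1 read in 1 of the 3 control libraries. Library 17 of the LPS controls exceeded the lowest Dicer-deficient one, so the LPS groups overlapped. In Dicer-deficient cells Cxcl1 was at least 40.3-fold higher with LPS, taking 3 reads over the steady-state group as the floor. In control cells the LPS difference was 2.20 ± 0.68 (limma adjusted p = 0.039), and that call was lost when any 1 of 6 of the 7 control libraries was left out, the exception being LPS control library 33 (leave-one-out adjusted p of those 6, 0.0523 to 0.121). Between genotypes after LPS Cxcl1 was higher in Dicer-deficient brain by 2.66 ± 0.63 (limma adjusted p = 0.0141). Without the 3 LPS libraries highest in S100a8 that difference was 2.26 (limma adjusted p = 0.123), and with a pseudocount of 0.1 its adjusted p was 0.0774. The interaction for Cxcl1 was 2.94 ± 0.97 and was not called (limma adjusted p = 0.277).

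Cxcl2 measured 127, 104, 112 and 150 in LPS Dicer-deficient brain and 134, 68.3, 94.1 and 4.0 in LPS control brain, against 1.0, 4.9 and 3.8 in steady-state Dicer-deficient and 4.7, 4.2 and 2.3 in steady-state control brain. The other 3 LPS control libraries were near the Dicer-deficient ones while library 33 was at the steady-state level. LPS raised Cxcl2 by 5.00 ± 0.78 in Dicer-deficient cells (limma adjusted p = 0.000208) and by 3.32 ± 0.78 in control cells (limma adjusted p = 0.0107). In control cells the adjusted p was 0.0519 without steady-state control library 9 and 0.0524 with only the 2 groups in the fit. The genotypes after LPS were not told apart for Cxcl2, with a difference of 1.42 ± 0.73 (limma adjusted p = 0.248).

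Cxcl9 and Cxcl10, the interferon-inducible ligands, rose in both genotypes with no called difference between them. Cxcl9 measured 132, 116, 142 and 166 in LPS Dicer-deficient and 42.3, 118, 165 and 31.7 in LPS control libraries, against at most 2.1 in steady-state Dicer-deficient and 5.9 in steady-state control libraries. Its LPS change was 6.06 ± 0.65 in Dicer-deficient cells (limma adjusted p = 9.66e-06) and 4.43 ± 0.65 in control cells (limma adjusted p = 0.00115). Cxcl9 spread much less among the Dicer-deficient libraries (139 ± 20.9) than among the controls (89.2 ± 63.6; SD, n = 4 each). Cxcl10 measured 312, 640, 585 and 1245 in LPS Dicer-deficient and 171, 381, 1196 and 224 in LPS control libraries. Its steady-state levels were 11.6, 85 and 34.3 in Dicer-deficient and 24.6, 57.2 and 33.3 in control libraries. The LPS change of Cxcl10 was 4.198 ± 0.63 (limma adjusted p = 0.000135) in Dicer-deficient and 3.30 ± 0.63 (limma adjusted p = 0.00400) in control cells. Interactions were 1.63 ± 0.93 for Cxcl9 and 0.90 ± 0.89 for Cxcl10, with limma adjusted p of 0.628 and 0.840.

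Cxcl16 was read at steady state in every brain library and rose with LPS in both genotypes. It measured 422, 704, 618.5 and 965 in LPS Dicer-deficient and 425, 721, 978 and 330 in LPS control brain, which overlapped fully. At steady state the 3 Dicer-deficient libraries had 81.0, 107.5 and 68.5, all below the 168, 206 and 177 of the controls. LPS raised Cxcl16 by 2.93 ± 0.32 in Dicer-deficient (limma adjusted p = 1.02e-05) and by 1.61 ± 0.32 in control cells (limma adjusted p = 0.00464). The interaction of 1.32 ± 0.45 was not called (limma adjusted p = 0.294), and after LPS the genotypes differed by 0.21 ± 0.30 (limma adjusted p = 0.723).

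Cxcl13, the B cell attractant, and Cxcr4 were the members that were lower in Dicer-deficient brain after LPS, and both rest on few reads. Cxcl13 measured 0.9, 1.7, 5.3 and 14.2 in LPS Dicer-deficient and 18.6, 51.0, 63.9 and 5.9 in LPS control brain, from 1 to 26 and from 6 to 87 reads. The groups overlapped through Dicer-deficient library 38 and control library 33. The genotype difference after LPS, Dicer-deficient minus control, was -2.46 ± 0.69 (limma adjusted p = 0.0335). The call for Cxcl13 was lost without any 1 of 6 of the 8 LPS libraries and with a pseudocount of 0.1 (limma adjusted p = 0.0842). With LPS Cxcl13 changed by 1.98 ± 0.75 in Dicer-deficient cells (limma adjusted p = 0.0623) and by 1.39 ± 0.75 in control cells (limma adjusted p = 0.235), and neither was called by limma. In Dicer-deficient cells the rise was called by edgeR with TMM scaling (log2 change 4.01, adjusted p = 0.0314), DESeq2 (4.25, adjusted p = 0.0143) and limma with a pseudocount of 0.1 (4.10, adjusted p = 0.00939), from 38 reads with LPS and 1 at steady state. Each was also called by limma without 1 library, LPS Dicer-deficient 35 (limma adjusted p = 0.0314) and LPS control 33 (limma adjusted p = 0.0364). At steady state Cxcl13 had 1 read over the 3 Dicer-deficient libraries and 28 over the 3 controls, a ratio of 0.0317 with a 95% counting interval of 0.000775 to 0.192. That difference, -3.05 ± 0.80, was just outside the threshold in the main test (limma adjusted p = 0.0552) and was called by DESeq2 on the recovered reads (adjusted p = 0.0315). Cxcr4 had no read in the 4 LPS Dicer-deficient libraries and 3, 4, 1 and 3 reads in the LPS controls, at least 4.71-fold lower when 3 reads over the group are the floor. Its call (-1.74 ± 0.53, limma adjusted p = 0.0462) was lost in edgeR (adjusted p = 0.0689) and without any 1 of the 4 LPS Dicer-deficient libraries.

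**Figure D2:**
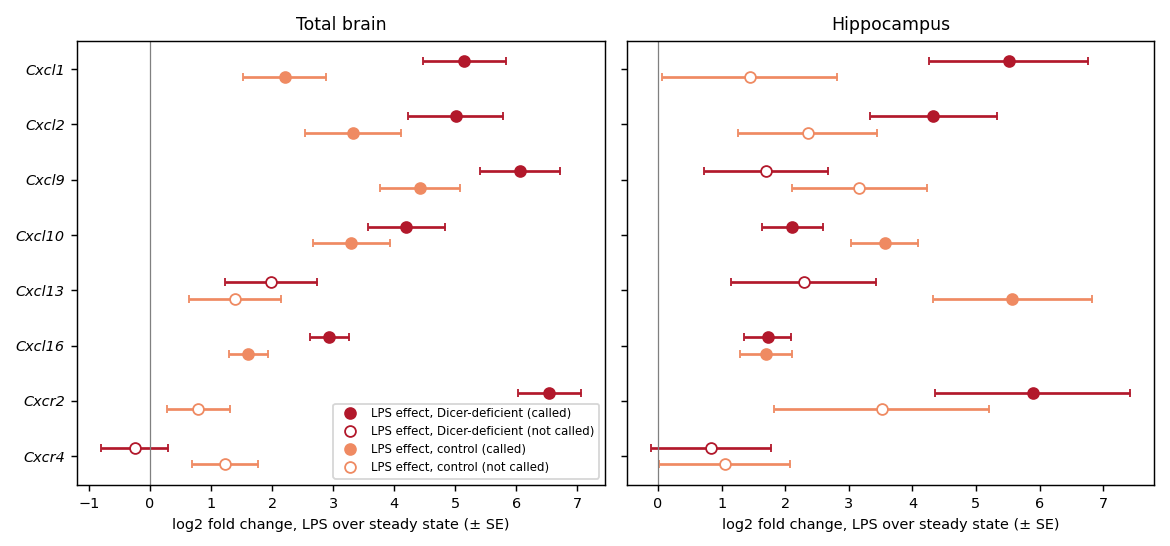
LPS effect on each gene as a log2 fold change with SE (horizontal axis), in total brain (left) and hippocampus (right), with Dicer-deficient cells in dark red above control cells in orange; filled points were called at an adjusted p under 0.05. In total brain Cxcr2 changed by 6.54 in Dicer-deficient and 0.79 in control cells.

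At steady state no member was called between the genotypes in total brain, where 2.18% of all genes were called. By limma 3 of the 8 had an unadjusted p under 0.05, which were Cxcl13, Cxcl16 and Cxcr2, each lower in Dicer-deficient cells, while edgeR called 0 and DESeq2 called 1. Cxcl16 differed by -1.11 ± 0.34 (limma adjusted p = 0.103) and Cxcr2 by -1.43 ± 0.55 (limma adjusted p = 0.206), which was called without steady-state Dicer-deficient library 12 (limma adjusted p = 0.0387). With only the 2 steady-state groups in the fit Cxcl13 and Cxcl16 were both called (limma adjusted p = 0.0251 and 0.0210). Of the 13 dissociation early genes, which rise when tissue is taken apart, 4 were called lower in the same comparison. Their summed level was 4553 to 7385 in steady-state Dicer-deficient and 8901 to 16202 in steady-state control brain, without overlap, and their part in the members' values was not tested.

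The separate adult table gave a second set of steady-state libraries. Cxcl16 was the 1 of 6 tested members called there, with 5.15% of all genes called. It measured 264, 147 and 158 in Dicer-deficient and 629, 435, 344 and 390 in control libraries, so that every Dicer-deficient library was below every control. The change of -1.25 ± 0.25 (limma adjusted p = 0.00654) kept its call without each library in turn. Cxcl10 measured 109, 84.9 and 97.3 in Dicer-deficient and 252, 144, 91.3 and 426 in control libraries, which overlap through 1 control. Its difference, -0.999 ± 0.40, was not called by limma (adjusted p = 0.182) but was by edgeR with TMM scaling (adjusted p = 0.0472) and DESeq2 (adjusted p = 0.0384). Cxcl9 was 13, 0 and 0 in Dicer-deficient and 9.90, 12.0, 32.2 and 15.4 in control libraries, from at most 6 reads each, and was not called (limma adjusted p = 0.159). Cxcr2 was 13, 7.72 and 13.9 in Dicer-deficient and 0, 12.0, 5.37 and 35.9 in control libraries, with full overlap. Cxcl1 and Cxcr4 had too few reads to be tested in the adult table. Of the 13 dissociation early genes, such as Egr1, 8 were called lower in Dicer-deficient adult libraries. Egr1 itself averaged 3609 ± 254 in Dicer-deficient and 8334 ± 2079 in control libraries (SD, n = 3 and 4), and the part of that difference in the values of Cxcl16 was not tested.

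In the hippocampus LPS called 5 members in Dicer-deficient cells, against 8.47% of all genes, and 3 in control cells, against 5.23%. All were higher with LPS. Cxcl10 and Cxcl16 were called in both genotypes, Cxcl1, Cxcl2 and Cxcr2 in Dicer-deficient cells and Cxcl13 in control cells. The interaction was called for none of the 8 by limma, edgeR or DESeq2, with 0.0162% of all genes called and 1 member at an unadjusted p under 0.05, so these lists are not shown to differ. Markers of other cells were lower with LPS in the same comparisons. The summed neutrophil markers were 481 to 739 in LPS and 8297 to 8814 in steady-state Dicer-deficient hippocampus, where 5 of 10 tested were called lower. The summed border macrophage markers were 1.39 to 20.2 in LPS and 219 to 356 in steady-state Dicer-deficient hippocampus, with 3 of 7 called lower. In control hippocampus they were 5.71 to 26.7 with LPS and 259 to 456 at steady state, with 2 of 7 called lower. The part of these cells in the members' values was not tested. With 2 libraries in most groups the calls moved with single libraries. Leaving out LPS Dicer-deficient library 20 left 0 members called in Dicer-deficient cells, and leaving out library 18 left 1.

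**Figure D3:**
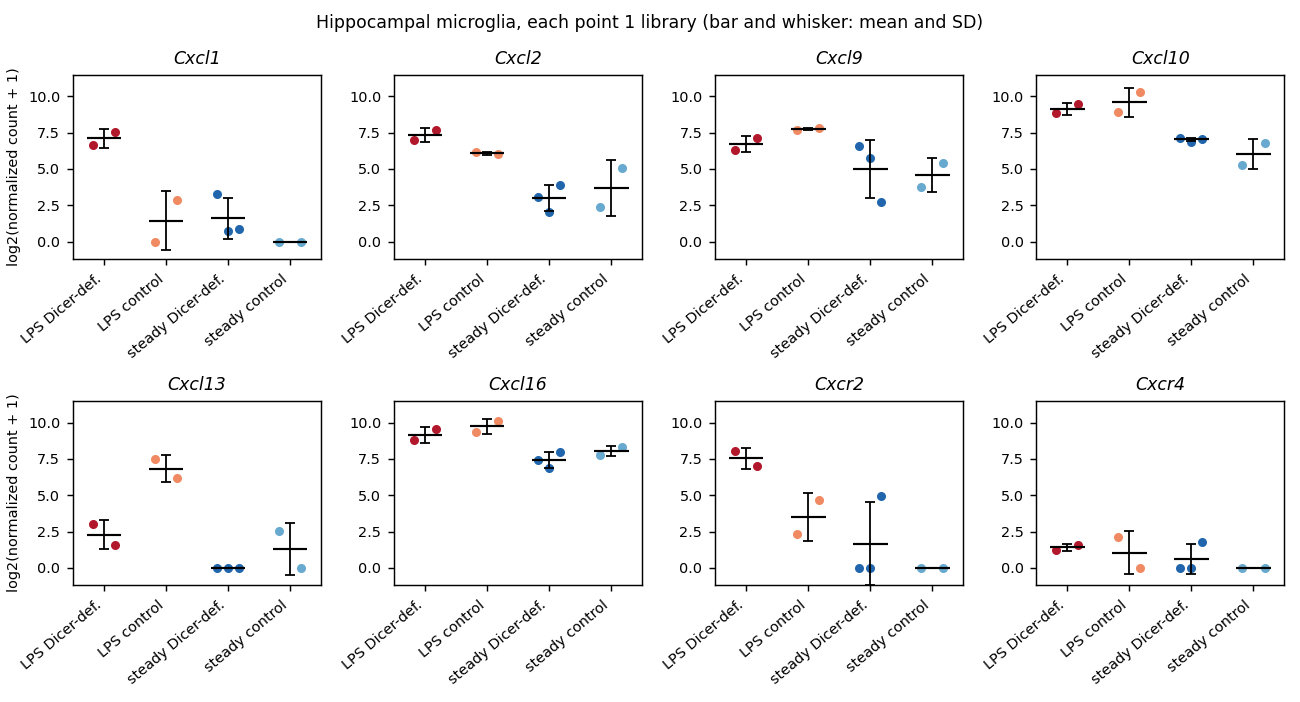
Normalized counts of the 8 genes in hippocampal microglia, as log2(value + 1) on the vertical axis, with 1 point per library in the order LPS Dicer-deficient, LPS control, steady-state Dicer-deficient and steady-state control; bars and whiskers are mean and SD. Cxcl13 is at 180 and 71.1 in the 2 LPS control libraries and at 0 in the 3 steady-state Dicer-deficient libraries.

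Cxcr2 measured 262 and 131 in LPS Dicer-deficient hippocampus and 4.08 and 24.8 in LPS control hippocampus. Steady-state levels were 0, 0 and 30.0 in Dicer-deficient and 0 in both control libraries. Both LPS Dicer-deficient libraries were higher than all other hippocampal libraries, as in total brain. The rise of 5.89 ± 1.54 with LPS in Dicer-deficient cells (limma adjusted p = 0.0344) was lost in edgeR with TMM scaling (adjusted p = 0.0655), in DESeq2 (adjusted p = 0.415), and without any 1 of 4 libraries: LPS Dicer-deficient 18 or 20 and steady-state Dicer-deficient 4 or 5. The genotype difference after LPS, 4.02 ± 1.69, was not called (limma adjusted p = 0.526).

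Cxcl1 was 100 and 189 in LPS Dicer-deficient hippocampus and 0 and 6.35 in LPS control hippocampus, a gap without overlap. Steady-state Cxcl1 was 8.46, 0.623 and 0.810 in Dicer-deficient and 0 in both control libraries. Cxcl2 was 125 and 204 in LPS Dicer-deficient and 69.3 and 63.5 in LPS control hippocampus, against 7.40, 3.11 and 13.8 in steady-state Dicer-deficient and 4.11 and 32.9 in steady-state control libraries. LPS raised Cxcl1 by 5.52 ± 1.25 and Cxcl2 by 4.33 ± 1.00 in Dicer-deficient cells (limma adjusted p = 0.0174 and 0.0184), and both calls were lost without LPS library 18 or 20. For Cxcl1 the call was also lost without steady-state library 5 or 6. Cxcl13 ran the other way, at 6.94 and 2.02 in LPS Dicer-deficient and 180 and 71.1 in LPS control libraries. At steady state Cxcl13 had no read in the 3 Dicer-deficient libraries and 7 reads in 1 of the 2 controls. Its rise with LPS in Dicer-deficient hippocampus was called by DESeq2 alone (4.85, adjusted p = 0.0400), not by limma (2.29 ± 1.14, adjusted p = 0.268) or edgeR. Between the genotypes after LPS, Cxcl1 differed by 5.68 ± 1.37 (limma adjusted p = 0.148) and Cxcl13 by -4.55 ± 1.25 (limma adjusted p = 0.206). No member was called there by the main limma test or edgeR. In the main test 0.307% of all genes were called, and 3 members had an unadjusted p under 0.05. DESeq2 called Cxcl1 and Cxcl13 (adjusted p = 0.00740 and 0.0243). Limma with a pseudocount of 5 called both as well (adjusted p = 0.0270 and 0.0445). At steady state no member was called between the genotypes by limma, edgeR or DESeq2, with 0.17% of all genes called and 0 members at an unadjusted p under 0.05.

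Cxcl10 measured 458 and 694 in LPS Dicer-deficient and 476 and 1245 in LPS control hippocampus, against 140, 117 and 134 in steady-state Dicer-deficient and 37.7 and 109 in steady-state control libraries. Cxcl16 measured 437 and 738 in LPS Dicer-deficient and 667 and 1091 in LPS control hippocampus, against 169, 117 and 255 in steady-state Dicer-deficient and 220 and 312 in steady-state control libraries. Both ligands were higher in all 4 LPS libraries than in any steady-state library, and the LPS groups overlapped. Cxcl10 rose by 2.11 ± 0.48 in Dicer-deficient (limma adjusted p = 0.0174) and by 3.56 ± 0.52 in control cells (limma adjusted p = 0.00214). The call for Cxcl10 in Dicer-deficient cells was lost without LPS library 18, LPS library 20 or steady-state library 5. The calls for Cxcl16 were lost without LPS library 20 in Dicer-deficient cells and without any 1 of the 4 libraries in control cells. That for Cxcl13 in control cells was lost without LPS library 15 or 16 or steady-state library 2. Cxcl9 was 77.7 and 137 in LPS Dicer-deficient and 205 and 220 in LPS control libraries. At steady state Cxcl9 was 93.0, 51.7 and 5.67 in Dicer-deficient and 12.3 and 41.5 in control libraries. It had no called difference in the hippocampus in the main limma test. Its rise in control cells was called by DESeq2 (adjusted p = 0.0131). Limma with only the compared groups in the fit also called that rise (adjusted p = 0.0351).

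Markers of other cells were read beside Cxcr2, since neutrophils carry this receptor. S100a8 was 256.5, 39.8, 323 and 61.3 in LPS Dicer-deficient and 38.2, 85.6, 30.1 and 679 in LPS control brain. The library with the most S100a8, LPS control 33, had 5.9 of Cxcr2, the lowest of the 8 LPS libraries. In the hippocampus S100a8 was 18.05 and 5.38 where Cxcr2 was 262 and 131, and 2065, 1564 and 1533 where Cxcr2 was 0, 0 and 30.0. At E14 S100a8 was at most 1.56 while Cxcr2 was 66.6 to 102. With LPS in Dicer-deficient brain both were higher: S100a8 was 39.8 to 323 with LPS, against 1.0, 14.1 and 1.9 at steady state, and 7 of 12 tested neutrophil markers were called higher and 1 lower, with a median log2 change of 2.56. In control brain 6 of 12 were called higher with LPS and 1 lower, with a median of 2.09. Of all tested genes, 24.9% were called with LPS in Dicer-deficient and 14.1% in control brain. The part of neutrophil transcripts in the Cxcr2 level was not tested. Over the 13 neutrophil markers the summed level was 785.5 to 3732 in LPS Dicer-deficient and 545 to 4449 in LPS control brain, which includes Csf3r, itself at 384.5 to 667 in LPS Dicer-deficient and 816 to 1327 in steady-state Dicer-deficient brain. None of the 10 tested neutrophil markers was called between the genotypes after LPS. Ly6g had no read in LPS Dicer-deficient brain, but only 1 to 3 of the 13 markers were at 0 in each of its libraries. S100a9, another neutrophil gene, was 1361, 98.3, 1431 and 256 there, against 1.0, 108.9 and 2.9 in steady-state Dicer-deficient brain. In LPS control brain S100a9 was 41.3, 293, 94.1 and 1534.

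**Figure D4:**
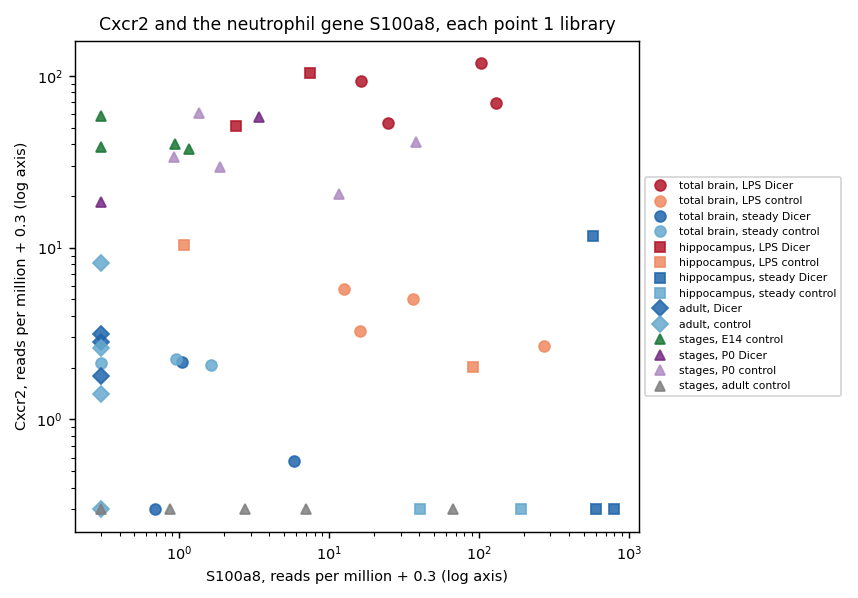
Cxcr2 (vertical axis) against the neutrophil gene S100a8 (horizontal axis) in the 46 libraries, as RPM (reads per 1000000 reads of the library) plus 0.3 on log axes, coloured by group and shaped by table. Cxcr2 is above 18 RPM in the LPS Dicer-deficient, E14 and P0 libraries, over S100a8 levels from 0 to 129.8 RPM.

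Between the genotypes after LPS in total brain, monocyte markers moved with Cxcr2. There 5 of 8 were called higher in Dicer-deficient than in control cells, with 9.4% of all genes called in either direction. Their summed level was 486 to 852 in LPS Dicer-deficient and 81.5 to 199 in LPS control brain. Fn1 was 372, 434, 404 and 218 in LPS Dicer-deficient and 58.8, 42.4, 53.7 and 9.9 in LPS control brain, without overlap. Ly6c2 was 35.2, 78.0, 61.5 and 78.8 in LPS Dicer-deficient and 2.1, 11.2, 3.7 and 27.7 in LPS control brain, in cells gated as Ly6C-. Ccr2, the defining monocyte receptor, was 8.3, 10.2, 17.7 and 7.1 in LPS Dicer-deficient and 0, 4.3, 1.5 and 1.0 in LPS control brain, without overlap, and was called higher by 2.30 ± 0.56 (limma adjusted p = 0.0150). In control brain Ccr2 was lower with LPS, at 1.70 ± 1.84, against 14.6 ± 12.8 at steady state (SD, n = 4 and 3; limma adjusted p = 0.0124). In Dicer-deficient brain Ccr2 was 10.8 ± 4.76 with LPS and 22.2 ± 9.62 at steady state, which was not called (SD, n = 4 and 3, limma adjusted p = 0.268). In Dicer-deficient hippocampus Ccr2 was called lower with LPS, at 1.01 ± 1.43, against 101 ± 45.5 at steady state (SD, n = 2 and 3, limma adjusted p = 0.0333). All 8 monocyte markers had reads in the 4 LPS Dicer-deficient brain libraries, and 0 to 2 of them were at 0 in the LPS control brain libraries. In the hippocampus the summed level was 285 to 675 in LPS Dicer-deficient, 45.1 to 96.3 in LPS control, 582 to 638 in steady-state Dicer-deficient and 108 to 134 in steady-state control libraries. After LPS both the sum and Cxcr2 were higher in Dicer-deficient than in control hippocampus, without overlap. Cxcr2 was 262 and 131 there, against 4.08 and 24.8 in LPS control libraries. Within the Dicer-deficient hippocampal libraries the sum did not follow Cxcr2. LPS Dicer-deficient library 18 had a sum of 285 with Cxcr2 at 262, and library 20 had 675 with Cxcr2 at 131. In the steady-state Dicer-deficient libraries Cxcr2 was 0, 0 and 30.0. The sums rest on different genes: in steady-state Dicer-deficient hippocampus Chil3 averaged 377 ± 39.1 and Fn1 35.1 ± 16.7 (SD, n = 3), while in LPS Dicer-deficient brain Chil3 averaged 101 ± 76.4 and Fn1 357 ± 96.0 (SD, n = 4). Fn1 was 247 and 425 in LPS Dicer-deficient and 17.1 and 37.4 in LPS control hippocampus. At steady state Fn1 was 39.1, 16.8 and 49.4 in Dicer-deficient and 21.9 and 0 in control hippocampus. The part of these transcripts in the Cxcr2 level was not tested. Without the 3 LPS libraries highest in S100a8 the Cxcr2 interaction was still called, in a run added after seeing the data. The LPS libraries it kept had monocyte sums of 683 and 486 in Dicer-deficient and 81.5 to 95.5 in control brain. It therefore does not test the part of monocyte transcripts.

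Other genes of the pathway were counted from lists drawn up by name. Of 15 further CXC family genes 5 were tested between the genotypes after LPS in brain, where 9.4% of all genes were called. The 1 called was Cxcl11, a further interferon-inducible ligand of CXCR3. Cxcl11 measured 13, 38.1, 52.6 and 54.7 in LPS Dicer-deficient and 2.1, 3.5, 10.3 and 2.0 in LPS control brain, a difference of 2.94 ± 0.65 (limma adjusted p = 0.00883). Unlike for Cxcl9 and Cxcl10, the LPS groups did not overlap, though the interaction for Cxcl11 was not called (limma adjusted p = 0.171). Cxcr3 and Cxcl14 were each called in 1 LPS comparison at means of at most 4.83. Ackr3, a scavenging receptor of CXCL12, was called lower with LPS in control brain at 1.00 ± 2.00, against 5.87 ± 5.01 at steady state (SD, n = 4 and 3).

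NF-kB feedback genes were called with LPS in brain of both genotypes. Of the 13, 11 were called higher and 1 lower in Dicer-deficient cells, with a median change of 2.18, and 6 higher and 1 lower in control cells, with a median of 0.56. Of all tested genes, 24.9% were called in Dicer-deficient and 14.1% in control cells. After LPS 7 of 13 were higher in Dicer-deficient than in control cells, where 9.4% of all genes were called, and 4 of 13 had a called interaction, where 0.171% of all genes did. Nfkb2, a precursor subunit of the non-canonical pathway, was 949 ± 57.7 in LPS Dicer-deficient and 273 ± 79.9 in LPS control brain (SD, n = 4 each), with an interaction of 2.22 ± 0.32 (limma adjusted p = 0.00487). Relb, its partner, was 500.2 ± 66.6 in LPS Dicer-deficient and 154 ± 21.8 in LPS control brain. Icam1, an adhesion molecule and NF-kB target, was 2139 ± 240.4 in LPS Dicer-deficient and 751 ± 42.6 in LPS control brain. Of the interferon signalling genes, 7 were called higher and 1 lower of 13 with LPS in Dicer-deficient cells and 6 higher and 1 lower in control cells, and none had a called interaction. Of the 14 genes for CXC processing and signalling, 3 were higher and 3 lower in Dicer-deficient than in control brain after LPS. Cd74, a receptor component for MIF, was 1533 ± 332 in LPS Dicer-deficient and 347 ± 156 in LPS control brain (limma adjusted p = 8.79e-05). Rgs2, which damps G protein signals, was 412 ± 65.5 in LPS Dicer-deficient and 1276 ± 812 in LPS control brain (limma adjusted p = 0.00311).

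Genes whose level followed the members most closely over the 14 total brain libraries give a description, since the libraries share groups and scaling. Cxcr2 was followed by Nek6 (Pearson r = 0.978), Rbms1 (0.963) and Slc7a7 (0.959). Cxcl10 was followed by Isg15 (0.978), Zbp1 (0.974) and Irf7 (0.969), all interferon-stimulated genes, and Cxcl16 by Isg15 (0.974), Clic4 (0.973) and Tlr2 (0.972). Cxcl1 was nearest to Sbno2 (0.979) and Cxcl2 to Adamtsl4 (0.987).

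Between the stages the family differed in 2 directions. E14 cells were sorted with a different gate from P0 and adult cells, so stage and gate cannot be told apart in comparisons with E14. Between E14 and P0 4 of 7 tested members were called, with 22.7% of all genes called; between P0 and adult 4 of 7, with 43.2%; and between E14 and adult 4 of 7, with 51.3%. Since these backgrounds are high, the counts say little about the family. Cxcr2 was 102, 66.6, 69.2 and 71.4 at E14 and 53.8, 106, 73.0, 37.2 and 63.1 at P0, and had no read in the 5 adult libraries. Adult levels were at least 146-fold lower than at E14 and at least 129-fold lower than at P0, with 3 reads over the adult group as the floor. The difference between P0 and E14 was -0.27 ± 0.31 and was not called (limma adjusted p = 0.568). The summed level of the monocyte markers was 61.6 to 117 at E14, 15.96 to 55.5 at P0 and 7.02 to 84.7 in adults. Border macrophage markers moved with Cxcr2 across the stages, with a summed level over 7 genes of 448 to 691 at E14, 668 to 932 at P0 and 19.3 to 73.6 in adults. Of these 7 genes, 5 were called lower in adults than at E14 and 6 lower than at P0. Mrc1, the mannose receptor, averaged 292.5 ± 81.0 at E14, 458 ± 126 at P0 and 16.6 ± 8.03 in adults (SD, n = 4, 5 and 5). The part of such cells in the Cxcr2 level was not tested.

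**Figure D5:**
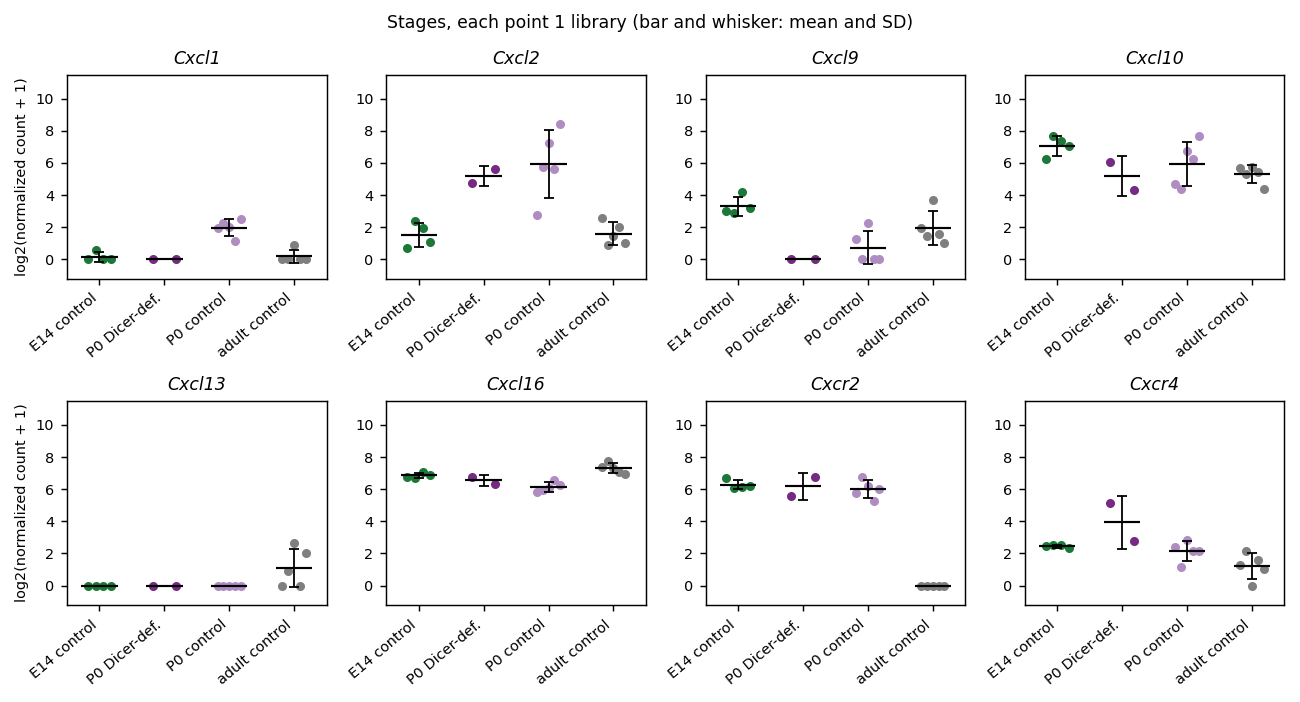
Normalized counts of the 8 genes in the stage table, as log2(value + 1) on the vertical axis, with 1 point per library, from left to right E14 control, P0 Dicer-deficient, P0 control and adult control; bars and whiskers are mean and SD. Cxcr2 is between 37.2 and 109 at E14 and P0 and at 0 in the 5 adult libraries.

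Cxcl2 and Cxcl1 peaked at P0. Cxcl2 was 0.631, 4.16, 2.85 and 1.15 at E14, then 5.82, 52.9, 148, 48.4 and 336 at P0, and 5.02, 0.877, 1.73, 3.05 and 1.01 in adults. The P0 libraries ran over a wide range but all were above every E14 and adult library. Cxcl2 differed by 4.42 ± 0.73 between P0 and E14 (limma adjusted p = 0.000217) and by -4.36 ± 0.69 between adult and P0 (limma adjusted p = 2.5e-05). Cxcl1 had 1 read over the 4 E14 libraries, 18 over the 5 at P0 and 1 over the 5 adult libraries. All 13 dissociation early genes were also called higher at P0 than at E14, with a median change of 3.69, and their part in the Cxcl2 level was not tested. Egr1 was 22.4 to 213 at E14, 1641 to 5326 at P0 and 517 to 3096 in adults. The nearest genes to Cxcl2 over the 16 libraries of the stage table were Nfkbiz (Pearson r = 0.938), an NF-kB regulator, Ccl3 (0.934), another chemokine, and Mir22hg (0.918).

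Cxcl16 dipped at P0. It was 109, 104, 136 and 117 at E14, 56.7, 60.4, 65.4, 95.6 and 74.7 at P0, and 167, 216, 158, 136 and 124 in adults. No P0 library reached the lowest E14 or adult one. The change was -0.73 ± 0.19 from E14 to P0 (limma adjusted p = 0.00751) and 1.17 ± 0.18 from P0 to adult (limma adjusted p = 1.44e-05). Cxcl9 was also lower at P0, with 55 reads over 4 E14, 6 over 5 P0 and 23 over 5 adult libraries, and differed by -2.59 ± 0.54 between P0 and E14 (limma adjusted p = 0.00182). Cxcl10 was 73.9, 200, 160 and 133 at E14, 24.7, 19.9, 105, 73.2 and 201 at P0, and 51.0, 38.6, 53.5, 42.7 and 20.2 in adults. The adult level of Cxcl10 was below every E14 library and differed by -1.74 ± 0.51 (limma adjusted p = 0.00702). Between P0 and E14 Cxcl10 was not called (limma adjusted p = 0.116), but was without P0 library 5 (limma adjusted p = 0.0248). Cxcl9 was called lower in adults than at E14 (-1.35 ± 0.54, limma adjusted p = 0.0418), a call that edgeR with TMM scaling did not make (adjusted p = 0.189) and that was lost without any 1 of 7 of the 9 libraries. Cxcr4 was 4.42, 4.68, 4.74 and 4.03 at E14 and 1.44, 3.51, 0, 2.03 and 1.01 in adults, a call (limma adjusted p = 0.0363) that edgeR with TMM scaling did not make (adjusted p = 0.0968) and that was likewise lost without any 1 of 7 libraries. Cxcl13 had no read at E14 or P0 and 10 over the 5 adult libraries. Pf4, the platelet factor gene of the family, was 97.3 ± 24.6 at E14, 217.5 ± 94.1 at P0 and 9.46 ± 9.17 in adults (SD, n = 4, 5 and 5).

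In newborns, where Cx3cr1Cre acts from development on, no member was called between the genotypes by limma, edgeR or DESeq2, with 1.48% of all genes called. Cxcl1 and Cxcr4 had an unadjusted p under 0.05. Cxcl1 had no read in the 2 Dicer-deficient libraries and 12 over the 3 controls that the labels tie to this comparison, at least 1.37-fold lower with 3 reads over the group as the floor. With all 5 P0 controls its difference of -1.97 was called (limma adjusted p = 0.0451). Cxcr4 was 33.8 and 5.85 in Dicer-deficient and 4.36, 1.24 and 6.08 in control libraries, 1 of the 2 far above the rest. Cxcl16 was 109 and 78.4 in Dicer-deficient and 56.7, 60.4 and 65.4 in control libraries, and Cxcr2 46.8 and 109 in Dicer-deficient and 53.8, 106 and 73.0 in control libraries. Cxcl16 was higher in both Dicer-deficient newborn libraries, with a difference of 0.60 ± 0.30 that was not called (limma adjusted p = 0.287), and Cxcr2 overlapped. Without Dicer-deficient library 2, Cxcl16 and Cxcr4 were called (limma adjusted p = 0.0341 and 0.00296), with library 1 alone in its group and assumed to vary like the controls.

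Levels in RPM set the 14 groups of the series on 1 scale, although the tables were made separately and no test joins them. Mean Cxcr2 was 83.3 ± 28.5 in LPS Dicer-deficient brain and 77.2 ± 37.8 in LPS Dicer-deficient hippocampus, then 43.2 ± 9.87 at E14, 37.8 ± 27.8 in P0 Dicer-deficient and 36.8 ± 15.1 in P0 control libraries. These 5 groups overlapped in range with their neighbours, and all lay above the other 9, of which the highest was 5.87 ± 5.88 in LPS control hippocampus (SD; n = 4, 2, 4, 2, 5 and 2). Cxcl1 was highest in LPS Dicer-deficient hippocampus, at 56.4 ± 23.7, and next in LPS Dicer-deficient brain, at 14.8 ± 6.10, 2 ranges that did not overlap. Cxcl2 had its highest means in P0 controls (64.3 ± 70.5) and LPS Dicer-deficient hippocampus (64.2 ± 20.7), which overlapped. Cxcl9 was highest in LPS control hippocampus (87.6 ± 2.31), above the range of LPS Dicer-deficient brain (55.7 ± 8.25). Cxcl10 and Cxcl16 had their highest means in LPS control hippocampus, 352 ± 215 and 361 ± 114, overlapping with the other LPS groups. Cxcl13 was highest in LPS control hippocampus (52.2 ± 33.2), followed without overlap by LPS control brain (14.4 ± 11.3). Cxcr4 stayed at or below 2.50 in every group but P0 Dicer-deficient, where it was 8.09 ± 7.08.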

How the data were processed

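Total RNA libraries of sorted microglia were captured with oligo(dT) beads, per the labels' protocols. The submitters' processing notes name bcl2fastq, HISAT 0.1.5, SAMtools, HOMER, DESeq2 and the build mm9, with no role or order. The deposited values are a signal: normalized read counts, in which the authors scaled the reads of each library by 1 factor. Of 560156 values above 0, at least 99.98% in each table were within 0.1 of a whole number of reads, so reads were recovered (898451 to 4573063 per library). Replicates were not pooled. Precision is limited by these depths, intervals and floors of 3 reads cover counting error only, and each table was normalized and tested on its own.

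The main test was limma 3.58.1 in R 4.3.3 on log2(value + 1) with a variance trend, 1 mean per group, 1 fit per table, and a fit of its own for newborns (2 Dicer-deficient and 3 control libraries). A gene was tested if the number of libraries with a value of 1 or more reached the size of the smallest group, and p-values were adjusted by Benjamini-Hochberg over all genes tested. The plan named edgeR for raw counts; as the tables hold normalized values, edgeR 4.0.16 and DESeq2 1.42.0 were run on the recovered reads as alternatives. Other alternatives were the pseudocount, the filter, the groups in the fit, the replicate number as a block, all 5 P0 controls and leaving out each library. Leaving out 3 LPS libraries together was added after seeing the data. Scripts were tested on simulated data. The 8 members in every comparison, called genes of the family list and up to 3 called genes of each other list, by smallest p, were named. Members and lists were chosen with earlier results of these data known.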

Additional observations from a re-analysis of the deposited data

Results flagged for a closer look

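Cxcr2 responded differently to LPS in the genotypes in total brain, by a test of the difference itself: the interaction was 5.75 on the log2 scale (limma adjusted p = 0.00389).

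In 2 further cases every library moved one way in one comparison and the opposite way in another, and the difference was not tested. Cxcl1 was higher in all steady-state Dicer-deficient hippocampal libraries, with a mean of 3.30 against 0 in both controls, from 8 reads in library 4 and 1 read in each of the other 2, and lower in both newborn Dicer-deficient libraries, where it had no read. Cxcl16 was higher in both newborn Dicer-deficient libraries, with a mean of 93.8, than in their controls, and lower in all adult Dicer-deficient libraries of the adult table and of steady-state total brain.

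Single libraries stood apart from their group in 6 of the 44 groups tested. The cut-offs assume normally distributed values, and a group with reads in only 1 library is always flagged. How many groups would be flagged without a true outlier is therefore not known. For Cxcl13 control library 1 of the adult table had 4.95, which is 1 read, and the other controls 0. For Cxcl1 adult control library 3 of the stage table had 0.863 and E14 library 2 had 0.520, each a single read. For Cxcl9 the same adult control library 3 had 12.1 and E14 library 3 had 17.1. For Cxcr2 E14 library 1 had 102.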

How the results depend on the processing

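Of 61 single results recomputed, the Cxcl13 interaction in brain reversed: it was 0.59 in the main test, -0.33 with a pseudocount of 5 and between -0.0488 (without LPS control library 33) and 1.03 with 1 library left out, and was called in none of these. Numbers of members called moved by over 1.5 times as follows; the cause was not tested. The adult count was 2 in place of 1 under edgeR with TMM scaling, edgeR with RLE scaling and DESeq2. With a pseudocount of 0.1 it was 1 for the steady-state brain genotypes (0 in the main test), 2 for the genotypes after LPS in brain (4) and 3 for LPS in Dicer-deficient hippocampus (5). With only the compared groups fitted it was 3 for LPS in control brain (5), 2 for the steady-state brain genotypes and 2 for the genotypes after LPS. DESeq2 gave 1 for the steady-state brain genotypes and 2 for the hippocampal genotypes after LPS (0), which also had 2 with a pseudocount of 5. Without the 3 LPS libraries highest in S100a8 the genotypes after LPS in brain had 2. All 5 P0 controls gave 1 in newborns (0).

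Leaving out 1 library at a time gave 3 to 6 members for LPS in control brain, 6 to 7 for LPS in Dicer-deficient brain, 0 to 1 for the steady-state brain genotypes, 2 to 3 for the brain genotypes after LPS, 1 to 2 for LPS in control hippocampus, 0 to 4 for LPS in Dicer-deficient hippocampus, 4 to 5 for P0 against E14, 3 to 5 for adult against P0, 2 to 4 for adult against E14 and 0 to 2 in newborns. In the adult Dicer comparison it stayed at 1. Where this left 1 library in a group, that library was assumed to vary like the others.

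Replicate numbers did not pair the libraries: deviations of same-numbered libraries correlated by -0.18 to 0.16. With the number as a block the counts were 1 (adult), 4 (P0 against E14), 5 (adult against P0), 3 (adult against E14) and 0 (newborn). No paired analysis was possible for the brain and hippocampal tables because their groups share no numbers. TMM moved the median of all genes by 0.11 relative to RLE scaling in adult against E14. Single-digit read numbers limit Cxcl1, Cxcl13 and Cxcr4. The same limit holds for Cxcl2, Cxcl9 and Cxcr2 in steady-state brain and in the adult table, with at most 7 reads in a library.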
